A study of Mus musculus with 6 samples.

Results

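Brown adipocytes burn fat to make heat, and 10 genes that mark these cells or serve heat production were examined here in the aortic vessels of miRNA-26b-deficient mice: *Ucp1*, *Cidea*, *Cox7a1*, *Cox8b*, *Ppargc1a*, *Dio2*, *Elovl3*, *Prdm16*, *Cpt1b* and *Zic1*. They were chosen by gene symbol from the 55341 genes of the deposited read count table, and 9 of the 10 were among the 16017 genes that passed the filter on low counts and were tested. *Zic1* did not pass it. RNA from 3 miRNA-26b-/- mice (libraries KO1 to KO3) and 3 miRNA-26b+/+ mice (libraries WT1 to WT3, labelled naive) was sequenced, 1 library per mouse, all mice being 8 weeks old and fed chow diet. The labels give the strain as C57BL/6NCrl, and the study's methods place all mice on a C57BL/6 background, while its account of the line describes 129/Sv embryonic stem cells and founders of a mixed 129/Sv and C57BL/6 background. In the miRNA-26b-/- line, loxP sites flanked the miRNA within an intron of the phosphatase gene *Ctdsp1*, and the deletion was made by a tamoxifen-inducible Cre that was then bred out. The sample labels name endothelial cells of the aorta, whereas the methods describe explanted aortic arch and thoracic aorta, perfused with phosphate buffered saline. In these libraries 7 smooth muscle genes summed to between 31672 and 41407 CPM (counts per 1000000 counts of the library), 8 endothelial genes to between 433 and 1774 CPM, and 12 adipocyte genes to between 979 and 3895 CPM, so the values below belong to vessel pieces with fat and not to isolated endothelium.

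The fat around the thoracic aorta of the mouse resembles brown fat. In brown adipocytes, noradrenaline from sympathetic nerves acts on beta-adrenergic receptors and raises cAMP, which releases fatty acids from lipid droplets and switches on a set of thermogenic genes. The fatty acids are oxidised in abundant mitochondria, and Ucp1, a carrier of the inner mitochondrial membrane, lets protons flow back without making ATP, so that the energy leaves as heat. Prdm16 and the coactivator encoded by *Ppargc1a* drive this programme, and Dio2 makes the active thyroid hormone that strengthens it.

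The miRNA that the knockout removes and its closest relative are shown first, because the letters of the seed, bases 2 to 8 and here in capitals, decide which transcripts can pair with them. miRNA-26b-5p lies at chr1:74394324-74394344 on the forward strand (RefSeq, GRCm38.p6), and miRNA-26a-5p is encoded at other loci that the knockout leaves in place. The knockout also lacks the 3p arm of the same hairpin, which has another seed and was not searched here.
miR-26b-5p: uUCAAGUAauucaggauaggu
miR-26a-5p: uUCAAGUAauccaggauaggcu
The capitals are the same in both. A search of the longest annotated 3′ UTR of each gene (GENCODE M21, GRCm38) for the letters that pair with this seed, TACTTGAA, TACTTGA or ACTTGAA, found none in any of the 10 brown fat genes. Over 20990 genes, 18.3% held at least 1 of these matches, 4.19% the 8-letter one. The UTRs searched ran from 43 bases in *Cox8b* to 4860 bases in *Dio2*, against a median of 961 bases over all genes. This says only that these letters are not in these windows.

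Of the 10 genes, 7 had counts in every library, while *Ppargc1a*, *Elovl3* and *Zic1* had none in at least 1. Per kilobase of exon (RPKM, computed here from the counts), *Cox8b* averaged 70.3 ± 45.1, *Cidea* 68.4 ± 33.1 and *Ucp1* 58.2 ± 41.3 over the 6 libraries (SD, n = 6). These 3 genes changed places from library to library and did not differ beyond their spread. Next came *Dio2* at 16.3 ± 7.29 RPKM, *Cox7a1* at 14.8 ± 13.2 and *Prdm16* at 13.2 ± 2.35, again within each other's spread. *Cpt1b* lay at 6.81 ± 2.79 RPKM, *Elovl3* at 1.32 ± 1.34 and *Ppargc1a* at 0.681 ± 0.522. *Zic1*, a transcription factor gene used as a marker of the classical brown fat between the shoulder blades, was at the bottom: 19 counts in KO1 and 0 in each of the other libraries, where 0 counts allow up to 3 counts, or between 0.09 and 0.108 CPM. Such limits cover counting error only.

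No difference between miRNA-26b-/- and miRNA-26b+/+ vessels was detected for any of the 9 genes tested. By the edgeR quasi-likelihood test 0 of 9 passed an adjusted p-value of 0.05 and 0 of 9 an unadjusted p-value of 0.05, and DESeq2 and limma voom also gave 0 and 0. Over all 16017 genes tested, 0.00624% passed the adjusted and 6.47% the unadjusted threshold, 3.4% with higher and 3.07% with lower values in miRNA-26b-/- mice. The CPM of the groups overlapped for each of the 10 genes, while 11.7% of all genes tested did not overlap. Of the 9 log2 fold changes 5 were above 0, with a median of 0.14 against 0.01 over all genes tested. With 3 mice against 3 an exact permutation test cannot give a p-value under 0.1. The edgeR p-values rest on counting error and on the spread between these mice, estimated in part from all genes tested. No other mice enter them.

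**Figure D1:**
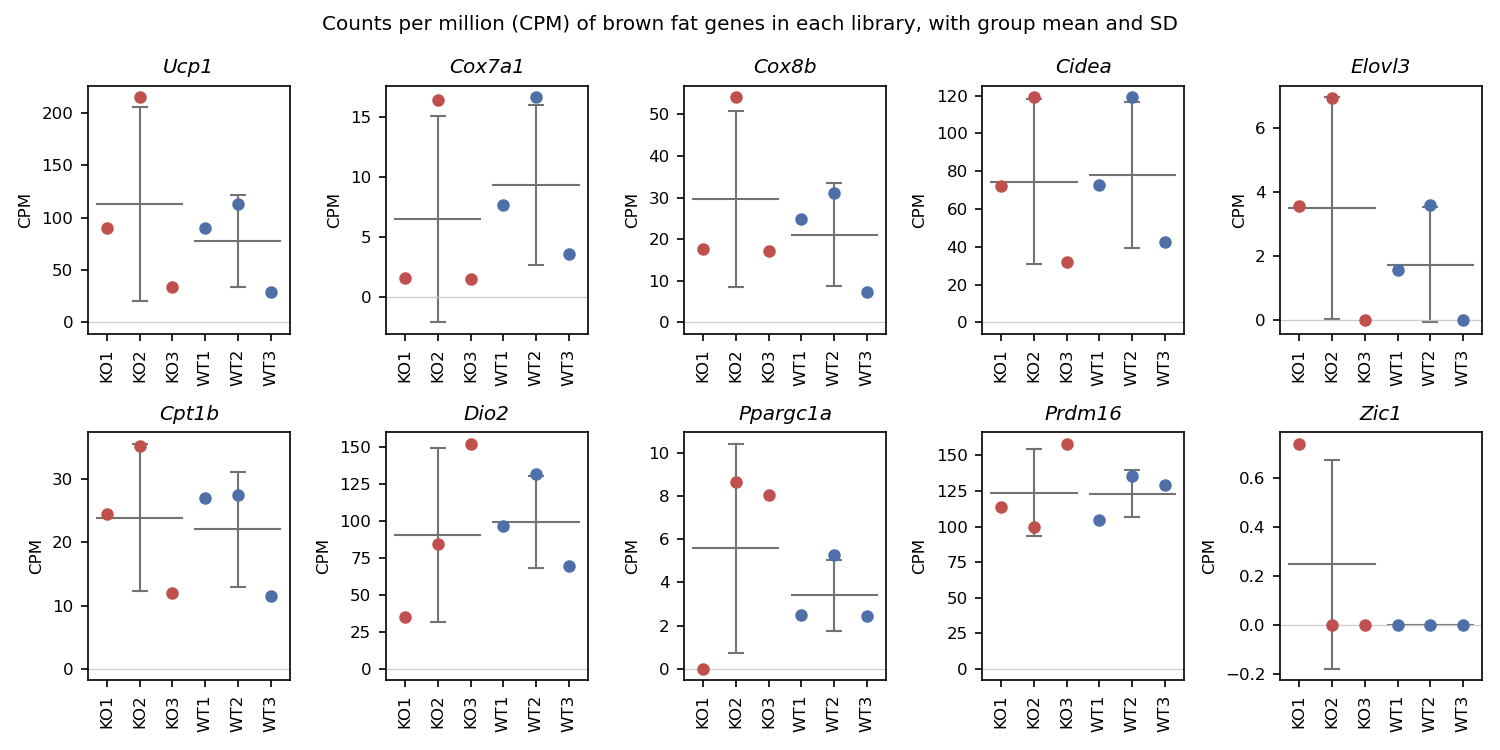
Normalised counts (CPM, linear axes from 0 or just below, a scale for each gene) of the 10 brown fat genes in each miRNA-26b-/- (KO1 to KO3, red) and miRNA-26b+/+ (WT1 to WT3, blue) library, with the mean and SD of each group of 3 in grey. The groups overlap for every gene, and KO2 is the highest library for *Ucp1*, *Cox8b*, *Elovl3* and *Cpt1b* and level with WT2 for *Cidea* and *Cox7a1*.

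*Ucp1* (chr8:83290352-83298452, forward strand, GRCm38), which encodes the uncoupling protein itself, stood at 90.3, 214.8 and 33.5 CPM in KO1, KO2 and KO3 and at 90.3, 113.3 and 29.1 CPM in WT1, WT2 and WT3. KO2 was the only library above the miRNA-26b+/+ range, and KO1 and WT1 had the same level to 3 digits. The log2 fold change was 0.56 with a standard error of 0.49 (edgeR, adjusted p = 0.905). Without KO2 it was -0.34, and without KO3 it was 0.99 with an unadjusted p of 0.0159 from edgeR (adjusted p = 0.319). Leaving out either of those libraries therefore changed its sign or its place at the unadjusted threshold. The share of all genes at that threshold without KO3 was not computed.

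The 300 bases around the annotated start of *Ucp1* are shown because this gene makes the heat-producing protein and varied 7.38-fold between the lowest and the highest library. Capitals mark TGACG, the core of a cAMP response element, from -147 to -143, and AGGTCA, a core that nuclear receptors bind, from -14 to -9, counted from the annotated start as 0 (chr8:83290098-83290397, forward strand, RefSeq GRCm38.p6).
Ucp1 promoter: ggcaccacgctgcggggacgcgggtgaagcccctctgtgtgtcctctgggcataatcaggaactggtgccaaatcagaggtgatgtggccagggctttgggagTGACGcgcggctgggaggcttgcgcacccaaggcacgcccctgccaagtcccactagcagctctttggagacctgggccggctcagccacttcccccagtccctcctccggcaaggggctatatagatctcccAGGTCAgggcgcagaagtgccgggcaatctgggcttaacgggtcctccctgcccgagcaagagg
On either strand, TGACG was present in 20.8% and AGGTCA in 16.3% of 32851 promoters of the same length, so neither match sets *Ucp1* apart. Promoters were given for 7 of the 10 genes.

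The paired subunits of cytochrome c oxidase, the last enzyme of the respiratory chain, exist in a form common to most tissues and a form of heart, skeletal muscle and brown fat. *Cox8b*, of the second kind, was at 17.7, 54.1 and 17.1 CPM in KO1 to KO3 and at 24.9, 31.0 and 7.20 CPM in WT1 to WT3. As for *Ucp1*, KO2 was the highest and WT3 the lowest library. Its log2 fold change of 0.54 (standard error 0.47, edgeR adjusted p = 0.902) turned to -0.27 without KO2. *Cox7a1*, likewise a muscle and brown fat form, was at 1.59, 16.5 and 1.47 CPM in KO1 to KO3 and at 7.71, 16.7 and 3.60 CPM in WT1 to WT3. KO1 and KO3 lay below the miRNA-26b+/+ libraries and KO2 beside the highest of them. Its log2 fold change was -0.37 (standard error 0.72, edgeR adjusted p = 0.966) and was -2.59 without KO2, with an unadjusted p of 0.00882 (edgeR, adjusted p = 0.857). Without WT2 it was 0.33.

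Per kilobase, *Cox8b* made up between 7.41% and 28.7% of the sum of *Cox8b* and its general counterpart *Cox8a*, and *Cox7a1* between 2.40% and 29.4% of the sum of *Cox7a1* and *Cox7a2*. Group means were 19.8% ± 7.83 and 16.6% ± 8.06 for *Cox8b* (SD, n = 3 each, exact permutation test, two-sided, p = 0.6) and 9.24% ± 11.1 and 16.7% ± 11.7 for *Cox7a1* (exact permutation p = 0.5), miRNA-26b-/- first. The promoter of *Cox8b* is given because the gene was, like *Ucp1*, highest in KO2 and lowest in WT3 (chr7:140900397-140900696, reverse strand, RefSeq GRCm38.p6). Its capitals mark TATAAA from 4 to 9 bases after the annotated start, letters that 13.6% of all promoters hold on either strand.
Cox8b promoter: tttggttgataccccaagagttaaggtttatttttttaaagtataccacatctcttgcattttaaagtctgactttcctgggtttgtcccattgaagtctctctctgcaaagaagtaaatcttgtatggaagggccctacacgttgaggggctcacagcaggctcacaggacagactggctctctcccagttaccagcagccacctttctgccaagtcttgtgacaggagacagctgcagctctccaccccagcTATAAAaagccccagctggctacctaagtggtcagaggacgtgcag

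*Cidea* encodes a protein of the lipid droplet that is abundant in brown adipocytes. It was at 72.2, 119.1 and 31.8 CPM in KO1 to KO3 and at 72.9, 119.1 and 42.3 CPM in WT1 to WT3, so that the sets of 3 values nearly coincided. The log2 fold change was -0.06 (standard error 0.38, edgeR adjusted p = 0.992). *Elovl3*, an elongase of very long chain fatty acids that cold exposure induces in brown fat, was at 3.54, 6.93 and 0 CPM in KO1 to KO3 and at 1.56, 3.59 and 0 CPM in WT1 to WT3. Its log2 fold change was 1.13 with a standard error of 0.999 (edgeR, adjusted p = 0.904), 0.02 without KO2 and 2.25 without WT2. Both libraries at 0 counts, KO3 and WT3, were those with the lowest sums of adipocyte genes, 1250 and 979 CPM. Among the 1349 genes with a mean within 1.4-fold of that of *Elovl3*, 30.7% had 0 counts in at least 1 library. *Elovl3* overlaps exons of *Pitx3* on the other strand, and reads were counted without strand. *Pitx3* had 32, 33 and 0 counts in KO1 to KO3 and 0 in each miRNA-26b+/+ library. *Elovl3* had 91, 231 and 0 counts in KO1 to KO3 and 47, 100 and 0 in WT1 to WT3. The part of shared reads in the *Elovl3* values was not tested. *Cpt1b*, the muscle and brown fat form of the enzyme that passes fatty acids into mitochondria, was at 24.5, 35.3 and 11.97 CPM in KO1 to KO3 and at 27.0, 27.5 and 11.6 CPM in WT1 to WT3. The log2 fold change was 0.14 (standard error 0.38, edgeR adjusted p = 0.984), and -0.29 without KO2. Its exons overlap those of *Gm44502* on the same strand, so their counts cannot be told apart where they share reads.

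*Dio2*, the deiodinase that converts thyroxine to the active hormone inside the cell, showed another order of libraries. It was at 34.9, 84.5 and 152.1 CPM in KO1 to KO3 and at 96.7, 131.6 and 69.6 CPM in WT1 to WT3. KO3, low in *Ucp1*, was the highest library, and KO1 the lowest. The log2 fold change was -0.14 (standard error 0.35, edgeR adjusted p = 0.977), and -0.71 without KO3 with an unadjusted p of 0.0288 (edgeR, adjusted p = 0.387). Without KO1 it was 0.22. The promoter is shown for contrast with *Ucp1* and *Cox8b*. It holds the full palindromic cAMP response element TGACGTCA from -95 to -88, present in 1.79% of all promoters, and TATAAA from -30 to -25 (chr12:90738989-90739288, reverse strand, RefSeq GRCm38.p6). The RefSeq start lies 600 bases upstream of the gene start in the annotation used for the counts, so the whole window is outside the counted gene.
Dio2 promoter: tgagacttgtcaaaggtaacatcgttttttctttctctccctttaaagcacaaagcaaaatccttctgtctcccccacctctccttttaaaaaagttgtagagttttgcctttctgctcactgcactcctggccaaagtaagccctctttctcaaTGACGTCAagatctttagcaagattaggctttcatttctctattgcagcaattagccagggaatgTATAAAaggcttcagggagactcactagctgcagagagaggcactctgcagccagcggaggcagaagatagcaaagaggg
The oestrogen-related receptor element TNAAGGTCA, held by 1.28% of promoters, was in none of the 7.

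Among the regulators, *Ppargc1a*, the coactivator of mitochondrial biogenesis, was at 0, 8.67 and 8.06 CPM in KO1 to KO3 and at 2.48, 5.28 and 2.43 CPM in WT1 to WT3. KO2 and KO3 lay above the miRNA-26b+/+ libraries and KO1 below them, with 0 counts where *Ucp1* was at the level of WT1. Among 1576 genes with a mean within 1.4-fold of that of *Ppargc1a*, 7.49% had 0 counts in at least 1 library. The log2 fold change was 0.79 (standard error 0.75, edgeR adjusted p = 0.914), 1.30 without KO1 with an unadjusted p of 0.0445 (edgeR, adjusted p = 0.850), and -1.18 with limma voom. *Prdm16*, the transcriptional regulator that sets brown fat identity, varied least, 1.59-fold between the lowest and the highest library. It was at 113.6, 99.5 and 158.1 CPM in KO1 to KO3 and at 104.5, 135.3 and 129.2 CPM in WT1 to WT3. The log2 fold change was -0.01 with a standard error of 0.19 (edgeR, adjusted p = 0.997). *Prdm16* and *Dio2* each overlap exons of a gene on the other strand, *B230104I21Rik* and *Gm26512*, whose counts were at most 206 and 143 in any library.

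**Figure D2:**
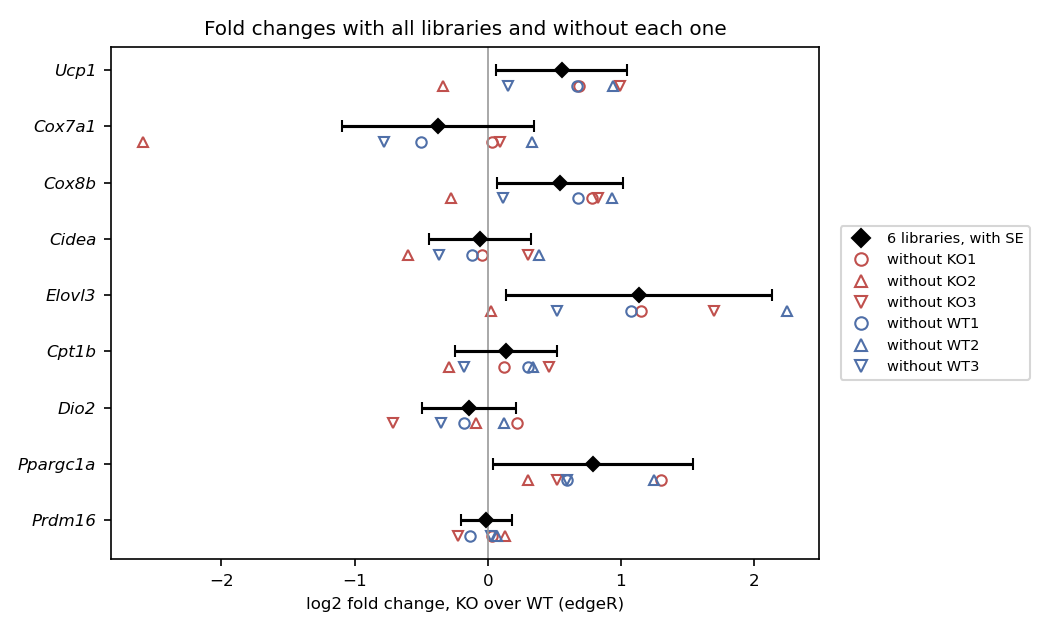
Log2 fold changes, miRNA-26b-/- over miRNA-26b+/+, of the 9 genes tested. Black diamonds with bars give the edgeR value and its standard error with all 6 libraries, and open symbols the value without 1 library (red, without a miRNA-26b-/- library, blue, without a miRNA-26b+/+ library). Leaving out KO2 moved *Ucp1* and *Cox8b* below 0 and *Cox7a1* to -2.59.

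The members were set beside the level of adipocyte RNA in each library, and their correlations with it ranged from an r of -0.48 to 0.95. No test compared these correlations with each other. The level of 12 adipocyte genes, as the mean of log2(CPM + 0.5), was 6.45, 7.33 and 5.92 in KO1 to KO3 and 6.37, 7.10 and 5.45 in WT1 to WT3. Fewer adipocytes and less RNA per adipocyte cannot be told apart in these bulk samples. Across the 6 libraries *Ucp1* had with this level a Pearson r of 0.95 (exact permutation p = 0.00694, adjusted p = 0.0625) and a Spearman rho of 1 (exact permutation p = 0.00278, adjusted p = 0.05). Adjusted values cover the 18 relations computed, 9 genes against 2 marker lists. *Cox8b* had an r of 0.94 and a rho of 0.94 (exact permutation p = 0.00417 and 0.0167), *Elovl3* an r of 0.93 and a rho of 0.99 (0.0139 and 0.00556), *Cidea* an r of 0.92 and a rho of 0.89 (0.0208 and 0.0333), and *Cpt1b* an r of 0.91 and a rho of 0.94 (0.0167 and 0.0167). The adjusted p-values of these 4 were 0.0625 to 0.075 for r and 0.05 to 0.12 for rho. Without the libraries farthest from the median, WT3 and KO2, r was 0.86 for *Ucp1*, 0.83 for *Cox8b* and *Elovl3*, 0.96 for *Cidea* and 0.78 for *Cpt1b*. The points share their libraries and depth. With the mean of each genotype taken out, r was 0.95 for *Ucp1*, 0.94 for *Cox8b*, 0.92 for *Elovl3* and *Cpt1b* and 0.96 for *Cidea*, given without a test, and within each genotype the order of *Ucp1* was that of the adipocyte level.

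*Cox7a1* was intermediate, with an r of 0.74 and a rho of 0.66 (exact permutation p = 0.11 and 0.175, adjusted 0.282 and 0.394), 0.81 without WT3 and KO2 and 0.91 with the genotype means taken out. The 10 cardiac and atrial muscle genes summed to 30.1, 397 and 19.4 CPM in KO1 to KO3 and to 78.6, 335 and 34.4 CPM in WT1 to WT3. This sum and *Cox7a1* were both highest in KO2 and WT2 and both lowest in KO1 and KO3. Their relation was not tested. *Ppargc1a* had an r of 0.23 and a rho of 0.43, *Dio2* an r of 0.08 and a rho of -0.03, and *Prdm16* an r of -0.48 and a rho of -0.49, with exact permutation p-values of 0.682, 0.867 and 0.340 for r and 0.419, 1 and 0.356 for rho. Leaving out WT3 and KO2 gave an r of -0.07, -0.04 and -0.22, and taking out the genotype means 0.25, 0.14 and -0.49. Against 8 endothelial genes, *Dio2* had an r of 0.77 and a rho of 0.77 (exact permutation p = 0.0694 and 0.103, adjusted 0.208 and 0.264) and *Prdm16* an r of 0.67 and a rho of 0.77 (0.182 and 0.103, adjusted 0.367 and 0.264). Without KO1 and KO2, the libraries farthest from the median there, r was 0.75 and 0.72, and with the genotype means taken out 0.84 and 0.87. None of the 18 relations had an adjusted p below 0.05, the lowest, at 0.05, being those of rho for *Ucp1* and *Elovl3*.

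**Figure D3:**
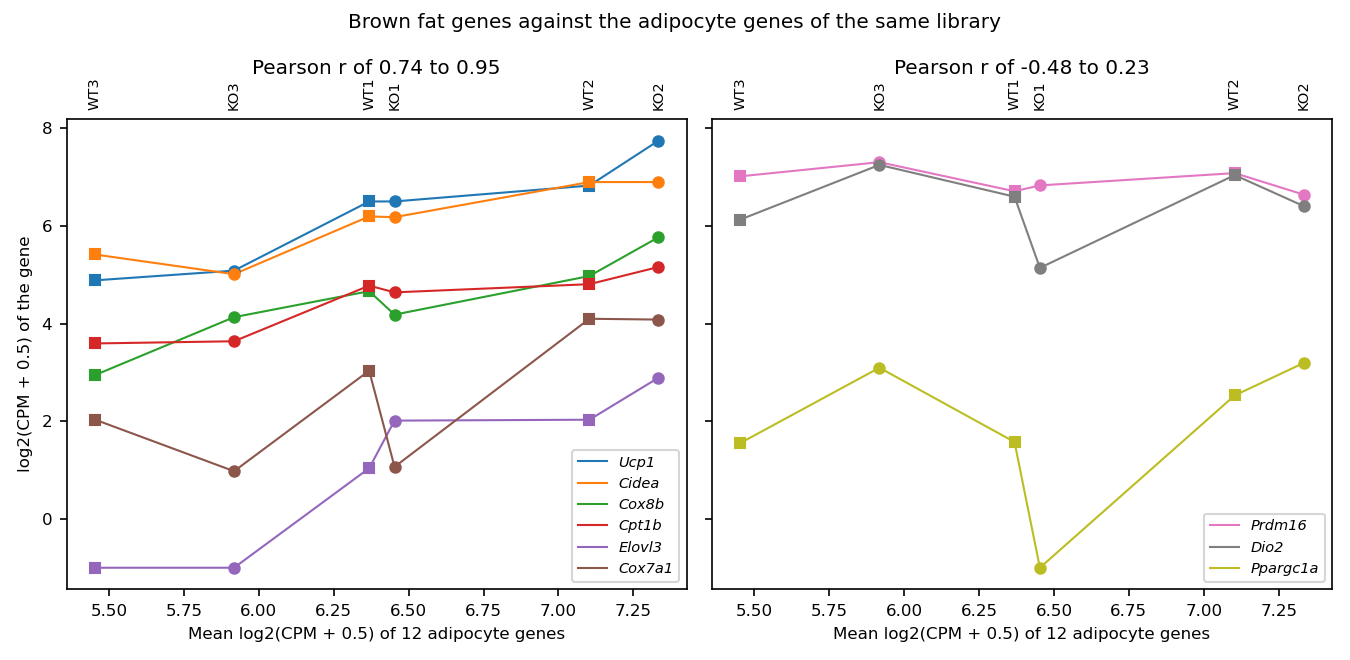
Log2(CPM + 0.5) of 9 brown fat genes against the mean log2(CPM + 0.5) of 12 adipocyte genes in the same library (circles, miRNA-26b-/-, squares, miRNA-26b+/+, library names along the top, lines join the libraries in order of the horizontal axis). *Ucp1* rises or stays level at each step in the left panel, while *Dio2*, *Prdm16* and *Ppargc1a* in the right panel have an r between -0.48 and 0.23.

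Set against the adipocyte genes of the same library, the members again did not separate the genotypes, with 1 exception. For each library the adipocyte mean was subtracted from the log2(CPM + 0.5) of the gene. *Ucp1* was then at 0.05, 0.42 and -0.83 in KO1 to KO3 and at 0.14, -0.27 and -0.56 in WT1 to WT3, a difference of 0.11 (exact permutation test, two-sided, p = 0.8, adjusted p = 0.9 over 9 genes). *Cidea* was at -0.27, -0.43 and -0.90 in KO1 to KO3 and at -0.17, -0.20 and -0.03 in WT1 to WT3, so that all 3 miRNA-26b-/- libraries lay below all 3 miRNA-26b+/+ libraries. The difference of -0.40 had the smallest p the test can give (exact permutation p = 0.1, adjusted p = 0.9). Of all 16017 genes tested, 2.66% did not overlap on this scale, and *Cidea* was 1 of 9 here. Relative to *Adipoq* alone the difference was -0.30 and the exact permutation p was 0.4. The other 7 tested members had differences between -1.28 for *Cox7a1* and 0.35 for *Elovl3*, each with an adjusted p of 0.9.

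The closest relatives of the members gave the same picture for *Cidea*. Per kilobase, *Cidea* made up 55.8%, 47.3% and 36.5% of the sum of *Cidea* and its lipid droplet relative *Cidec* in KO1 to KO3 and 56.5%, 57.4% and 65.8% in WT1 to WT3, again without overlap (exact permutation p = 0.1). *Cidec* is 1 of the 12 adipocyte genes, so this is no separate evidence. *Ucp1* was between 65.4% and 95.6% of the sum of *Ucp1* and *Ucp2*, a relative of many tissues. It was between 93.1% and 96.9% of the sum of *Ucp1* and *Ucp3*. Like *Ucp1*, *Ucp3* was highest in KO2, at 13.0 CPM, and lowest in WT3, at 3.50 CPM. *Cpt1b* was between 16.6% and 42.5% of the sum of *Cpt1b* and *Cpt1a*. *Cpt1a*, the form of liver and most other tissues, was at 109.3, 108.4 and 81.8 CPM in KO1 to KO3 and at 112.2, 134.1 and 131.5 CPM in WT1 to WT3 without overlap, at an unadjusted p above 0.05. *Ppargc1b*, the second coactivator of the family, was at 1.17, 1.98 and 1.33 CPM in KO1 to KO3 and at 5.56, 8.15 and 2.86 CPM in WT1 to WT3. It lay lower in all 3 miRNA-26b-/- libraries (log2 fold change -1.85, standard error 0.70, unadjusted p = 0.0176 and adjusted p = 0.736 with edgeR). Of 14 relatives tested, *Ppargc1b* alone passed the unadjusted threshold, 7.14% against 6.47% of all genes, and the groups did not overlap for *Ppargc1b* and *Cpt1a*, 14.3% against 11.7%, both near the share over all genes.

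Of 87 other genes of brown fat and heat production 82 were tested, and none passed the adjusted threshold with edgeR. At an unadjusted p-value under 0.05, 2 were higher and 3 lower in miRNA-26b-/- mice, 6.1% of those tested against 6.47% of all genes. The groups did not overlap for 5 of the 82, also 6.1%, against 11.7% of all genes. The median log2 fold change was 0.05.

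Of 13 tested genes listed as transcriptional regulators of brown fat, 1, *Pdk4*, encodes a metabolic kinase and not a regulator of transcription. In this list *Ppargc1b* and *Ehmt1* were lower and *Esrrg* was higher at the unadjusted threshold, 23.1% against 6.47% of all genes tested. The groups did not overlap for 15.4% of the list, against 11.7% of all genes. The lists were not tested as sets. *Ehmt1*, a histone methyltransferase that works with Prdm16, was at 30.7, 34.1 and 38.4 CPM in KO1 to KO3 and at 45.1, 47.4 and 49.1 CPM in WT1 to WT3, without overlap (log2 fold change -0.47, standard error 0.20, edgeR unadjusted p = 0.0355, adjusted p = 0.741). *Esrrg*, an oestrogen-related receptor of oxidative tissues, was at 0, 3.54 and 3.30 CPM in KO1 to KO3 and at 0.662, 0.144 and 0 CPM in WT1 to WT3, and the groups overlapped (edgeR unadjusted p = 0.0359, adjusted p = 0.741). KO1 was at 0 for *Esrrg* as it was for *Ppargc1a*. It also had the lowest *Ppara*, at 0.778 CPM against 5.61 to 10.1 in the other libraries, and the lowest *Ebf2*, at 1.01 CPM against 5.61 to 16.3, both regulators of the brown programme named here after their values were seen. In the same list KO1 was the lowest library for *Esrra*, *Ppargc1b*, *Ehmt1* and *Pdk4* too. It was not the lowest for *Pparg*, *Irf4*, *Tfam*, *Nrf1*, *Zfp516* and *Cebpb*.

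Among 8 genes listed as repressors of the brown programme *Trpv4* was lower at the unadjusted threshold, 12.5% against 6.47% of all genes tested. The list also holds *Foxc2*, which is known to promote that programme. *Trpv4* encodes a calcium channel that restrains thermogenic genes in adipocytes and is also a channel of endothelium. It was at 2.53, 2.64 and 12.4 CPM in KO1 to KO3 and at 14.4, 19.4 and 16.8 CPM in WT1 to WT3 (log2 fold change -1.56, standard error 0.49, edgeR unadjusted p = 0.00623, adjusted p = 0.736). KO1 and KO2, low in *Trpv4*, were also the lowest in the 8 endothelial genes, which summed to 433 and 474 CPM there, against 1774 CPM in KO3 and 1232 to 1662 CPM in the miRNA-26b+/+ libraries. The part of endothelial RNA in the *Trpv4* values was not tested.

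Of 11 genes of heat production without Ucp1, *Atp2a1* was higher at the unadjusted threshold, 9.09% against 6.47% of all genes tested. It encodes the calcium pump of fast skeletal muscle and was at 4.55, 16.3 and 0.0717 CPM in KO1 to KO3 and at 0.265, 2.23 and 1.20 CPM in WT1 to WT3, with overlap (log2 fold change 2.62, standard error 1.03, edgeR unadjusted p = 0.0214, adjusted p = 0.736). A list of 12 skeletal muscle genes summed to 51.9, 129.6 and 15.7 CPM in KO1 to KO3 and to 11.8, 30.2 and 6.07 CPM in WT1 to WT3. Like *Atp2a1* it was highest in KO2, then KO1, then WT2, but the order of the other libraries differed. KO3 was the lowest library for *Atp2a1* and WT3 for the list. The part of the skeletal muscle genes in the *Atp2a1* values was not tested. *Alpl* did not overlap between the groups and had an unadjusted p above 0.05, as did *Tmem26* among 15 other brown adipocyte genes.

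In the lists that feed the thermogenic cell no gene passed the unadjusted threshold. These were 9 genes of adrenergic input and cAMP signalling with *Gnas*, *Prkaca* and *Creb1* the most abundant, 7 of lipolysis led by *Pnpla2*, *Mgll* and *Lipe*, 9 of fatty acid uptake and activation led by *Fabp4*, *Lpl* and *Acsl1*, and 10 of mitochondrial fatty acid oxidation led by *Acadm*, *Hadha* and *Acadvl*. The same held for the 15 other brown adipocyte genes, led by *Acot11*, *Letmd1* and *Gk*. The median log2 fold changes of these lists lay between -0.02 for oxidation and 0.21 for uptake. *Adrb3*, the beta-adrenergic receptor of adipocytes, named here after its values were seen, was at 23.1, 59.3 and 10.1 CPM in KO1 to KO3 and at 30.6, 23.1 and 7.07 CPM in WT1 to WT3, again highest in KO2 and lowest in WT3.

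**Figure D4:**
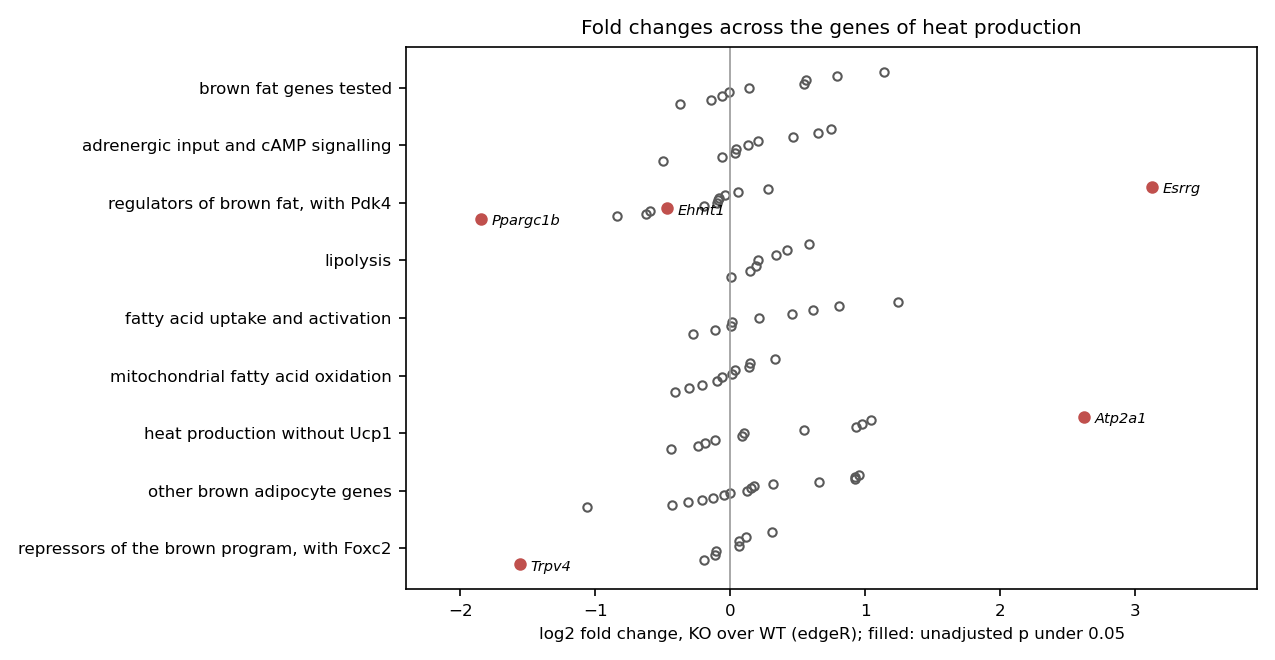
Log2 fold changes (edgeR, miRNA-26b-/- over miRNA-26b+/+) of the 9 brown fat genes tested and of 82 other genes in 8 lists of the thermogenic pathway, 1 circle per gene. Filled red circles mark the 5 genes at an unadjusted p under 0.05, none of which passed adjustment, and no brown fat gene is among them.

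KO2, the library that carried the highest *Ucp1*, stood apart in sympathetic neuron genes and was high together with WT2 in cardiac muscle genes. Its 10 sympathetic neuron genes summed to 453 CPM, against 17.2 to 70.1 CPM elsewhere, and its cardiac muscle genes to 397 CPM, against 335 CPM in WT2 and 19.4 to 78.6 CPM in the rest. At the unadjusted threshold 7 of 9 tested sympathetic neuron genes (77.8%) were higher in miRNA-26b-/- mice. So were 8 of 11 skeletal muscle genes (72.7%) and 5 of 6 Schwann cell genes (83.3%), against 6.47% of all genes in either direction. *Tek*, 1 of 8 endothelial genes (12.5%), was lower. None of these genes passed adjustment. Each of the 7 sympathetic neuron genes was highest in KO2, and *Th* and *Npy* were at 0 CPM in both KO1 and KO3. The others of the 7 had counts in KO1 or KO3. The groups did not overlap for 0% of the sympathetic neuron, 18.2% of the skeletal muscle and 50% of the Schwann cell genes, against 11.7% of all genes. KO1 summed to 17.2 CPM in sympathetic neuron genes, below every miRNA-26b+/+ library. No gene passed the unadjusted threshold among 12 adipocyte, 10 white adipocyte, 8 cardiac, 7 smooth muscle, 7 fibroblast, 6 macrophage and 4 erythroid genes. The part of these tissues in the brown fat values was not tested.

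The genes whose pattern over the 6 libraries was most like that of *Ucp1* were, among 11673 tested genes with a mean of at least 5 CPM, *Mpp7*, *Gpd1*, *Dbi*, *Plin2*, *Cyc1*, *Plin5*, *Chchd3*, *Tecr*, *Dvl2* and *Gm16537*. Their Pearson r with *Ucp1* on the log2(CPM + 0.5) scale ran from 0.996 for *Mpp7* to 0.986 for *Gm16537*. It rests on 6 libraries that share depth and tissue makeup, and the 10 were picked as the highest of 11673 values. Without the libraries farthest from the median of *Ucp1*, r ran from 0.926 for *Dvl2* to 0.993 for *Tecr*. Known roles among them are a glycerol phosphate dehydrogenase (*Gpd1*), coats of lipid droplets (*Plin2*, *Plin5*), a carrier of acyl-CoA (*Dbi*), a subunit of respiratory complex III (*Cyc1*) and a step of fatty acid elongation (*Tecr*). No role is given here for *Mpp7*, *Chchd3*, *Dvl2* and *Gm16537*, so these roles do not describe the whole list. *Gpd1* was at 317.5, 757.1 and 113.6 CPM in KO1 to KO3 and at 343.6, 498.8 and 103.8 CPM in WT1 to WT3, the same order of libraries as the adipocyte genes in all but its middle places. None of the 10 passed the unadjusted threshold between genotypes. *Dvl2* overlaps exons of *Acadvl*, a fatty acid oxidation gene on the other strand, so its counts are uncertain.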

How the data were processed

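RNA of whole aortic vessel was sequenced from 3 miRNA-26b-/- and 3 miRNA-26b+/+ mice on a HiSeq instrument after TruSeq library preparation. Per the labels and methods, STAR alignments to GRCm38 (mm10) were made, and the authors deposited raw read counts per gene name from featureCounts 1.6.4 with the GENCODE M21 annotation, without strand, a read over several genes being counted for each (release M23 in the methods). A second deposited table, of log2 CPM and the authors' own fold changes, p-values and test statistics, was not used. Library totals ran from 25706728 to 33345037 counts, and intervals and floors cover counting error only.

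A gene was kept if its counts summed to 2 or more and it exceeded 1 CPM in 2 or more libraries. After TMM normalization, edgeR 4.0.16 (R 4.3.3) gave the quasi-likelihood test, fold changes used 0.125 as prior count, and p-values had Benjamini-Hochberg adjustment over all 16017 genes. Groups were taken from the genotype labels. The procedure was tested on simulated counts. Single values and correlations used exact permutation tests, on log2(CPM + 0.5) where stated. RPKM used the exon length of the count table. The fat, pathway and marker lists, like the members, were chosen with earlier results of these data known. The genes named are all members, genes of the pathway lists at an unadjusted p under 0.05 or otherwise up to 3 with the highest mean CPM, the closest relatives, and the 10 genes of at least 5 CPM most correlated with *Ucp1*, with exceptions stated. Alternatives were library size or upper quartile normalization, DESeq2 1.42.0, limma 3.58.1 voom, other filters on low counts, other prior counts and pseudocounts, the adipocyte level as a covariate, *Adipoq* as the reference gene, and leaving out each library. The earlier quasi-likelihood method of edgeR was added after seeing the data. Seed and promoter matches were searched as exact letters, the promoters on both strands.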

Additional observations from a re-analysis of the deposited data

How the results depend on the processing

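With edgeR, DESeq2 and limma voom and under all alternatives run, 0 of the brown fat genes passed an adjusted p of 0.05. At an unadjusted p under 0.05 the count of members was 0 under each alternative that kept all 6 libraries and between 0 and 2 when 1 library was left out: *Ppargc1a* without KO1, *Cox7a1* without KO2, *Ucp1* and *Dio2* without KO3. Of 82 pathway genes, 5 passed the unadjusted threshold, against 3 with limma voom, 3 with the earlier quasi-likelihood method of edgeR, 9 with the adipocyte level as a covariate, and 3 to 15 when 1 library was left out, 15 without KO3 and 3 without WT1. The cause was not tested. The share of all genes tested at that threshold, 6.47%, was computed for the main fit alone. The counts of members and pathway genes under the alternatives therefore have no share of all genes beside them.

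Of 144 log2 fold changes of the 9 members under the alternatives, 19 had the opposite sign. With all libraries kept, these were *Ppargc1a* at -1.18 with limma voom, *Prdm16* at 0.0064 with library size only and 0.0222 with the adipocyte covariate, and *Cpt1b* at -0.12 with that covariate. When 1 library was left out, the log2 fold change ran from -0.34 to 0.99 for *Ucp1*, -0.60 to 0.39 for *Cidea*, -2.59 to 0.33 for *Cox7a1*, -0.27 to 0.93 for *Cox8b*, -0.22 to 0.13 for *Prdm16*, -0.71 to 0.22 for *Dio2*, -0.29 to 0.46 for *Cpt1b*, 0.02 to 2.25 for *Elovl3* and 0.31 to 1.30 for *Ppargc1a*. Relative to the adipocyte genes, leaving out 1 library gave differences of -0.15 to 0.47 for *Ucp1*, -1.37 to 0.94 for *Ppargc1a*, -0.79 to 0.25 for *Prdm16* and -0.066 to 1.18 for *Elovl3*. With the adipocyte level as a covariate, the log2 fold change was 0.06 for *Ucp1*, 0.18 for *Cox8b*, 0.48 for *Elovl3*, -0.37 for *Cidea* and -0.98 for *Cox7a1*, all at an unadjusted p above 0.05. *Zic1*, *Elovl3* and *Ppargc1a* had 0 counts in 5, 2 and 1 of the 6 libraries, and the cause was not tested. No paired analysis was possible because the labels give the groups no shared replicate numbers.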
